A study of Mus musculus with 4 samples.

Results

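Elastic fibre and microfibril genes were followed across 4 expression arrays of mouse dermal fibroblasts, the matrix-producing cells of the skin, with and without deletion of Rbpj. The list holds 10 genes: Eln (elastin), the fibrillins Fbn1 and Fbn2, the fibulins Fbln1, Fbln2, Fbln5 and Efemp2, and the microfibril-associated Mfap2, Mfap4 and Mfap5. They were chosen by name, as all probe sets assigned to a single listed gene. This gave 16 of 34945 single-gene probe sets, for 8 of the 10 genes. Fbn1 and Efemp2 had no single-gene probe set in the annotation used and were not analysed here. All 8 genes were among the 10916 genes analysed, out of 18193 with a probe set.

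Each of the 4 groups had 1 array, from cells labelled C57BL/6. The in vivo deleted group is labelled ColI Cre x RBP loxp-loxp, that is, a floxed Rbpj gene with a Cre transgene named ColI, and its control is labelled RBP loxp-loxp, the floxed gene without Cre. The in vitro deleted group received an adenovirus with Cre recombinase (Adeno Cre) and its control an adenovirus with GFP (Adeno GFP), so both in vitro groups carried a virus and neither in vivo group is labelled with one. Ages, the number of animals or cultures pooled, the cells in which ColI Cre acts, and whether the in vivo cells were cultured are not stated in the labels. Rbpj encodes CSL, the DNA-binding protein that represses Notch target genes in the absence of Notch signal and activates them with it. With 1 array per group, the differences within a pair have no replicates behind them, and none is given a p-value.

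Elastic fibres give skin its recoil. Cells secrete tropoelastin, the product of Eln, which is deposited on a scaffold of fibrillin microfibrils and crosslinked by lysyl oxidases. Fibulins and microfibril-associated proteins bring these parts together, and fibrillins also hold latent TGF-beta and BMP growth factors in the matrix.

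Promoter sequences were looked up because the deleted protein binds DNA. RefSeq windows from 250 bases before to 50 bases after a transcription start (assembly GRCm38.p6) were held for 6 of the 10 genes, in 11 windows, some of them overlapping. The 4 genes without a window were Eln, Fbn2, Mfap4 and Mfap5. The CSL core motif TGGGAA was searched on both strands. It occurred in 6 of the 11 windows, of Fbln1, Fbln5, Fbn1 and Efemp2, and in 25.6% of all 32851 windows of that length. Most of the 6 belong to Efemp2 and Fbn1, which have no expression values here, and overlapping Efemp2 windows share a site. The longer form GTGGGAA, which contains the core, occurred in 1 window, that of Fbn1, and in 6.38% of all windows. Shown are windows of 3 genes that either held the core (Fbln5 and Fbln1) or were of the gene that read lower on every probe set in both pairs (Mfap2). Capitals mark the core on the opposite strand, where it reads TTCCCA.
Fbln5, chr12:101819070-101819369, minus strand: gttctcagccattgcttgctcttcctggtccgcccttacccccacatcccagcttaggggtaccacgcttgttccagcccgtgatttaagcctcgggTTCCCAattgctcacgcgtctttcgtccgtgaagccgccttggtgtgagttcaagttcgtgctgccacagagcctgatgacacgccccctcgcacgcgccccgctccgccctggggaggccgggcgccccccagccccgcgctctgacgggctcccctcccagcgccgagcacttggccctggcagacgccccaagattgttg
Fbln1, chr15:85205699-85205998, plus strand: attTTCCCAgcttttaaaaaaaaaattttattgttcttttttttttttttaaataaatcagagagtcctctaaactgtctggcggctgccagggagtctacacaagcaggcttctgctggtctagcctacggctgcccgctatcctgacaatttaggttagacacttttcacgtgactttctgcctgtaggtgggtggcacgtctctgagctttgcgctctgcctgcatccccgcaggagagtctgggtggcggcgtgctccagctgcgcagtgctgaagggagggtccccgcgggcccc
Mfap2, chr4:141010431-141010730, plus strand: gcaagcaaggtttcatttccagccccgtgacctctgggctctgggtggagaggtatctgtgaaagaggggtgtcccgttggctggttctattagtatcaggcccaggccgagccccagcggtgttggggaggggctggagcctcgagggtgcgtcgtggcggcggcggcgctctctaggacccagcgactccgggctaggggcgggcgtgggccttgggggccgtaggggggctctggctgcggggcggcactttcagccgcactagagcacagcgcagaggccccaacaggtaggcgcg
The core began 153 bases before the start in the Fbln5 window and 247 bases before it in the Fbln1 window. Neither the Mfap2 windows nor the Fbln2 window held it. A match is a string of letters in a window and was not tested as a binding site.

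Values are log2 signals after quantile normalization of the 4 arrays. A gene is represented by its brightest probe set, and further probe sets are given beside it. Signals are compared between arrays for one probe set, never between probe sets. A gene or probe set was analysed when its mean over the 4 arrays was at least 5.28 on the log2 scale, the 40th percentile of gene means. Of the 16 probe sets, 14 passed, and each of these 14 was above that level on all 4 arrays. The 2 that did not pass were second probe sets of Fbln2 and Fbln5.

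The deposited values had medians between 4.94 and 5.06 on the 4 arrays. Arrays of one pair correlated at r = 0.982 in vivo and 0.983 in vitro across probe sets, and arrays of different pairs at 0.949 to 0.963. The bioB hybridisation spike averaged 6.93 and 6.97 on the in vivo deleted and control arrays, and 8.36 and 8.39 on the in vitro ones, so the system and the batch of arrays cannot be told apart. Of the 3 Rbpj probe sets, 1454896_at read 8.19 on the deleted and 9.02 on the control array in vivo, and 7.29 against 8.63 in vitro. Probe set 1448957_at read 8.51 against 8.61 in vivo and 7.48 against 8.58 in vitro. Probe set 1418114_at read 6.60 against 7.09 in vivo and 6.40 against 6.31 in vitro. Rbpj thus differed less in vivo than in vitro on 2 of the 3 probe sets, and the place of these probe sets within the gene, inside or outside the deleted part, was not used.

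The in vivo comparison asked how the matrix genes differ when Rbpj is deleted in the animal. All 8 elastic fibre genes read lower on the deleted array, and 4 of them, Eln, Fbn2, Mfap4 and Mfap2, were at least 2-fold lower. Over all 10916 genes, 53.6% were lower by any amount and 3.81% at least 2-fold lower. The median log2 difference was -1.28 over the 8 genes and -0.03 over all genes. The other 4 genes, Fbln5, Fbln1, Mfap5 and Fbln2, differed by 1.20-fold to 1.89-fold. At a 1.5-fold threshold 6 of the 8 genes differed, against 19.2% of all genes, and at 3-fold 4 of the 8, against 1.76%. When each gene was read on its probe set nearest to 0, 2 of the 8 differed by 2-fold, against 5.19% of all genes. In bulk RNA, fewer cells that express a gene and less RNA per cell cannot be told apart.

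**Figure D1:**
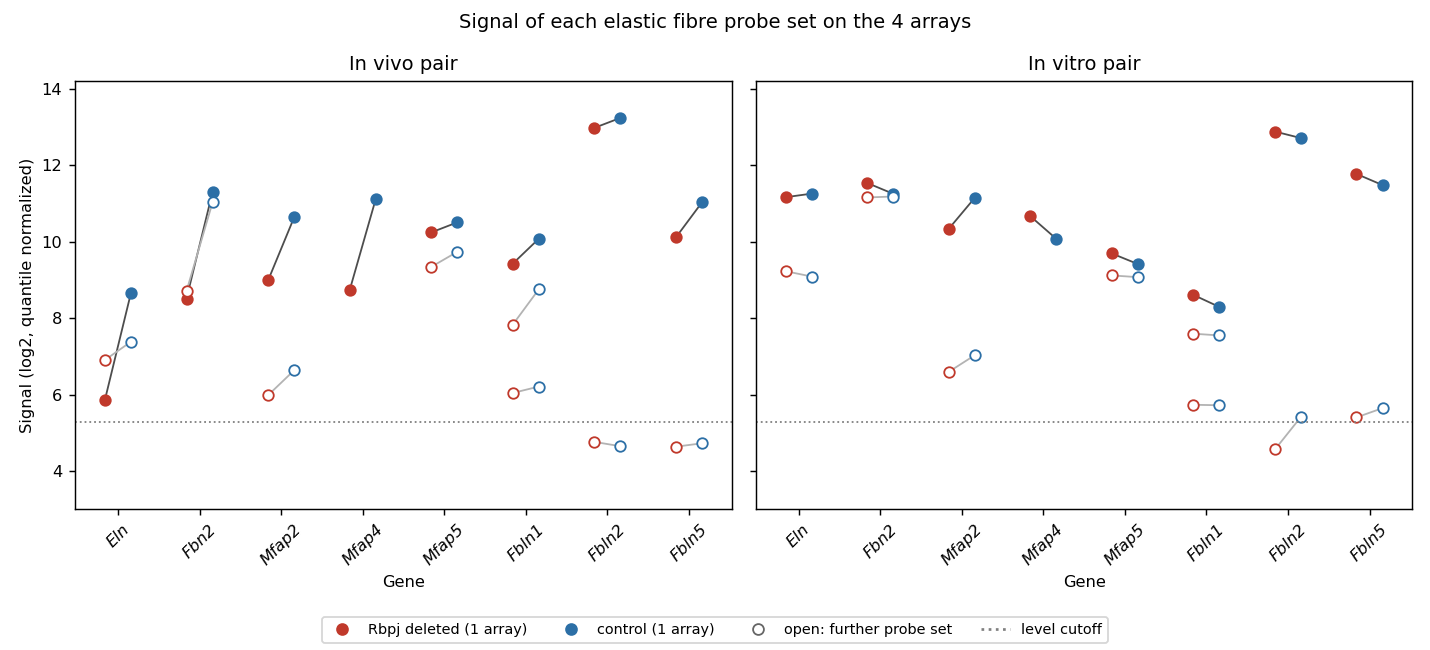
Signal of each elastic fibre probe set (log2, quantile normalized) on the in vivo arrays (left panel) and the in vitro arrays (right panel), with the deleted array in red left of its control in blue. Filled points are the brightest probe set of a gene and open points further ones. In vivo, Eln, Fbn2, Mfap4 and Mfap2 read at least 2-fold lower on the deleted array, while in vitro the brightest probe set of every gene stayed within 2-fold.

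Eln, which encodes the elastic core protein itself, read 5.87 on the in vivo deleted array against 8.67 on its control, for probe set 1420855_at. This is a log2 difference of -2.80, or 6.98-fold lower, and the 17th lowest of 10916 genes. The second Eln probe set, 1420854_at, read 6.90 on the deleted array against 7.38 on the control, a difference of -0.48. Both probe sets are assigned to the same expressed sequence and both were lower on the deleted array. They disagreed by more than the SD of 0.28 between probe sets of one gene over all genes in this pair. The Eln value in vivo therefore depends on which probe set is read.

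Fbn2, a fibrillin known mainly from developing tissue, read 8.51 on the in vivo deleted array against 11.3 on its control (1454830_at). The difference of -2.79 was the 18th lowest of all genes. Its second probe set, 1422831_at, read 8.71 against 11.03, a difference of -2.33. Fbn2 was thus the gene of the family in which 2 probe sets both exceeded 2-fold.

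The genes of microfibril-associated proteins differed in the size of their in vivo differences. Mfap4, a fibrinogen-related protein that binds tropoelastin and fibrillin, had a single probe set, with 8.73 on the in vivo deleted array against 11.11 on its control. It was 5.23-fold lower, the 36th lowest of all genes. Mfap2, which encodes the fibrillin-binding glycoprotein MAGP-1, read 8.98 against 10.64 on probe set 1417359_at, a difference of -1.65, and was the 99th lowest. Its second probe set, 1447833_x_at, read 5.98 against 6.63, a difference of -0.65. Mfap5 encodes the related MAGP-2, which has been reported to bind Notch1 and the Notch ligand Jagged1. It read 10.24 on the in vivo deleted array against 10.50 on its control (1418454_at), and 9.34 against 9.73 on 1449082_at. Both Mfap5 differences, -0.26 and -0.39, lay inside the 5th to 95th percentile of all genes (-0.88 to 0.75), whereas Mfap4 lay outside it. Mfap2 lay outside it on its brightest probe set and inside it on its second.

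The measured fibulins of the list, Fbln5, Fbln1 and Fbln2, each differed by less than 2-fold in vivo. Fibulin-3 (Efemp1) is outside the list and is given further below. Fbln5, which joins tropoelastin to microfibrils and to lysyl oxidase-like 1, read 10.11 on the in vivo deleted array against 11.03 on its control, a difference of -0.92 at percentile 4.53 of all genes. Fbln1, a calcium-binding glycoprotein of elastic fibres and basement membranes, read 9.42 against 10.08 on its brightest probe set, a difference of -0.65. Its other probe sets differed by -0.93 (1422540_at) and -0.17 (1439688_at). Fbln2, which binds fibrillin and lies between elastin and microfibrils, read 12.97 against 13.24, a difference of -0.26. The second probe sets of Fbln2 and Fbln5, which were under the level cutoff, differed by 0.11 and -0.09.

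Counted by probe set, all 14 analysed probe sets of the 8 genes read lower on the in vivo deleted array, against 50.6% of all 18127 analysed probe sets. Of the 14, 5 were at least 2-fold lower, against 3.34% of all. They belonged to Eln, Fbn2, Mfap2 and Mfap4. The differences ran from -2.80 to -0.17.

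**Figure D2:**
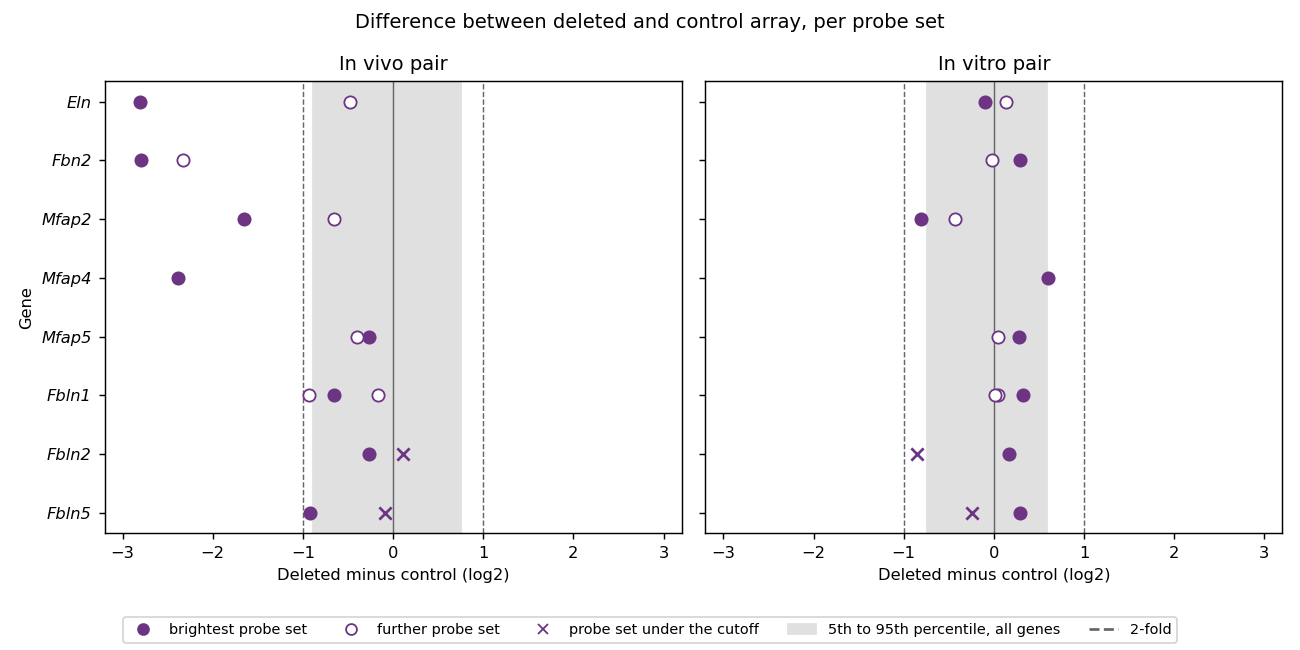
Deleted minus control (log2) for each probe set of the 8 genes, in vivo on the left and in vitro on the right. The grey band spans the 5th to the 95th percentile of all genes analysed (-0.88 to 0.75 in vivo, -0.74 to 0.59 in vitro) and dashed lines mark 2-fold. In vivo, probe sets of Eln, Fbn2, Mfap2 and Mfap4 lie beyond 2-fold, and the second probe sets of Eln and Mfap2 do not.

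Markers of other cells differed between the same 2 arrays. Of 18 keratinocyte markers with a probe set, of 19 listed, 13 were at least 2-fold higher on the in vivo deleted array and 0 lower. Their summed signal was 12.96 on the log2 scale on the deleted array against 9.91 on the control. Of 14 skeletal muscle markers 11 were at least 2-fold higher, with a summed signal of 12.07 against 10.07. Over all 10916 genes analysed, 307 were at least 2-fold higher on the in vivo deleted array. The keratin genes Krt5 and Krt14 read 10.28 and 10.94 on the deleted array, against 6.04 and 5.93 on the control, and the muscle regulator Myog was higher by 2.12 on the deleted array. Of the other defining genes, Trp63 read 5.19 on the deleted array against 5.64 on the control and Myod1 4.94 against 4.13, with both deleted-array values below the level cutoff. The part of these cells in the elastic fibre differences was not tested. The 12 fibroblast markers had a summed signal of 15.93 on the deleted and 15.94 on the control array and a median difference of -0.06. Among them the collagen genes Col1a1, Col1a2 and Col3a1 differed by 0.15, -0.07 and -0.16, and the proteoglycan Lum by -1.06, as the 1 marker of the list beyond 2-fold. The collagens carry a large part of the sum and read near the top of the signal range, with Col1a1 at 13.72 on the deleted array. The near-equal sums thus say little about fibroblast content, which was not tested. Outside the collagens the fibroblast markers ran from -1.06 for Lum to 0.13 for Vim. Macrophage, endothelial and pericyte lists had 1, 0 and 0 markers beyond 2-fold, of 8, 7 and 7.

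The in vitro comparison asked the same of fibroblasts infected in culture. None of the 8 genes reached 2-fold in either direction, against 1.93% of all 10916 genes. At a 1.5-fold threshold 2 of the 8 differed, Mfap2 and Mfap4, against 14.8% of all genes. On their brightest probe sets 6 of the 8 read higher on the deleted array, where 42.5% of all genes did. The median difference was 0.28 over the 8 genes and -0.06 over all genes. When each gene was read as the median of its probe sets, the median over the 8 genes was 0.04.

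Mfap4 had the highest difference in vitro, with 10.67 on the deleted array against 10.07 on its control, or 1.51-fold higher. It lay just beyond the 95th percentile of all genes, at percentile 95.3. Mfap2 had the lowest, with 10.33 on the deleted array against 11.15 on its control, or 1.76-fold lower (percentile 3.39). Its second probe set read 6.59 against 7.03, also lower. On their brightest probe sets, Mfap2 and Mfap4 were the genes of the family outside the 5th to 95th percentile in vitro, and they lay on opposite sides. The second Mfap2 probe set, at -0.44, lay inside it.

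Eln was near equal on the in vitro arrays, at 11.16 with the deletion and 11.26 without it for 1420855_at, and 9.23 and 9.09 for 1420854_at. Fbn2 read 11.53 against 11.25 (1454830_at) and 11.15 against 11.18 (1422831_at). The signs of their 2 probe sets disagreed, so no direction is read for either gene. Fbln5 read 11.77 against 11.48, Fbln1 8.61 against 8.29 and Fbln2 12.88 against 12.71, with differences of 0.29, 0.32 and 0.17. The second probe sets of Fbln5 and Fbln2, under the level cutoff, had the opposite sign, at -0.24 and -0.86, and the median of its probe sets put Fbln2 at -0.34, so no direction is read for these genes either. Mfap5 read 9.69 against 9.41 and differed by 0.28, with 0.04 on its second probe set. The values of Mfap5 and of the brightest fibulin probe sets were smaller than the SD of 0.48 between probe sets of one gene in the in vitro pair.

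The control probe sets for RNA integrity were unlike on the 2 in vitro arrays. For Gapdh the signal at the 3' end was above that at the 5' end by 0.04 on the deleted and 1.01 on the control array, and for Actb by 0.39 and 1.09. Pcx had a 3' excess of 1.94 with the deletion and 3.27 without it, while Tfrc went the other way, with 1.47 and 0.93. In vivo the excess was 0.12 and 0.15 for Gapdh and 0.15 and 0.37 for Actb. Keratinocyte markers had a summed signal of 10.18 on the deleted and 10.68 on the control array in vitro, with 0 at least 2-fold higher and 3 lower. The part of RNA quality and of these cells in the in vitro differences was not tested.

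The pairs were then set side by side. The in vivo difference was below the in vitro difference for all 8 genes, and by at least 2-fold for 4 of them, Fbn2, Mfap4, Eln and Fbln5. Over all genes, 47.4% were lower in this way by any amount and 4.87% by at least 2-fold. The gap was -3.08 for Fbn2, -2.98 for Mfap4, -2.71 for Eln and -1.21 for Fbln5. On the second probe sets it was -2.30 for Fbn2 but -0.62 for Eln, so the place of Eln among the 4 rests on probe set 1420855_at. On the second Fbln5 probe set, under the level cutoff, the gap was 0.15, so the place of Fbln5 rests on its brightest probe set. For Mfap2 it was -0.84, because Mfap2 was lower in both pairs. With 1 array per group the gap between the pairs could not be tested.

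**Figure D3:**
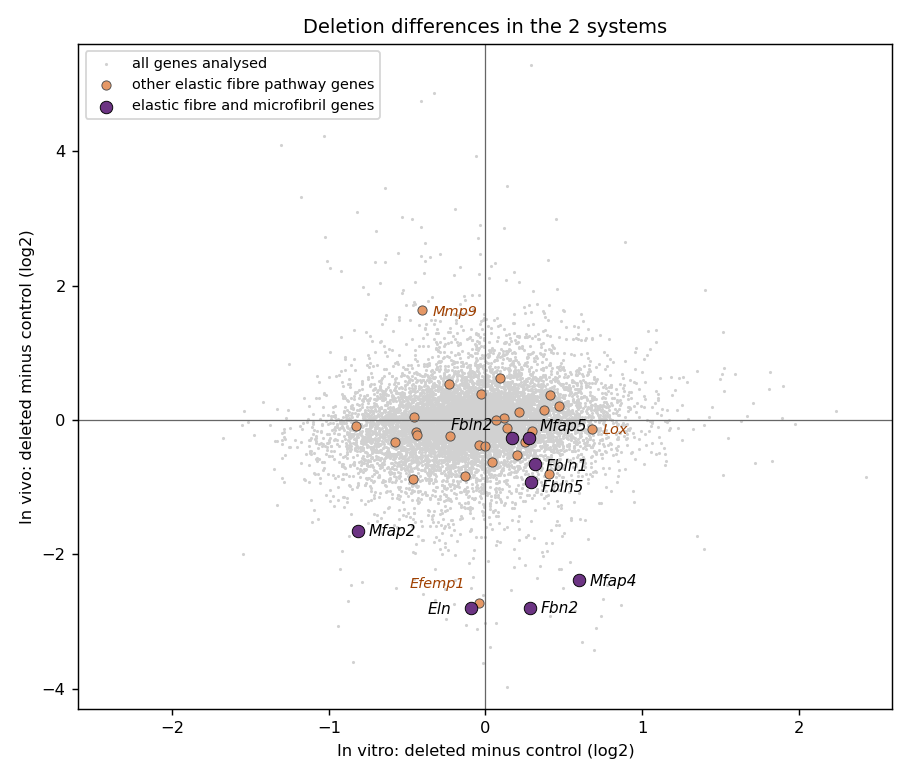
Deleted minus control in vitro (horizontal axis, log2) and in vivo (vertical axis, log2) for all 10916 genes (grey), the 8 elastic fibre and microfibril genes (purple) and 28 other genes of the pathway (orange), each by its brightest probe set. Eln, Fbn2 and Mfap4 lie low on the vertical axis and within 1 log2 unit of 0 on the horizontal one, and Mfap2 is below 0 on both.

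Levels also differed between the systems without deletion, probe set by probe set. Eln read 8.67 on the in vivo control and 11.26 on the in vitro control, a difference of -2.59, and its second probe set differed by -1.70. Fbn2 differed little between the controls, at 11.30 and 11.25. Fbln1, Mfap5 and Mfap4 read higher on the in vivo control, by 1.79, 1.09 and 1.04. These genes thus had no common direction between the control arrays, whereas all read lower with the deletion in vivo. These gaps cannot be told apart from array batch.

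A deletion effect common to both systems was estimated in limma over all 10916 genes, with system as a covariate. After Benjamini-Hochberg adjustment 0% of genes passed 0.05, and none of the 8, while 759 genes (6.95%) had an unadjusted p under 0.05. Mfap2 was the 1 gene of the 8 among these 759. Its shared log2 effect was -1.23 ± 0.28 (SE, adjusted p = 0.679 in limma), lower in 2 of 2 systems. Eln had an effect of -1.45 ± 0.66 and Fbn2 of -1.26 ± 0.74, with adjusted p of 0.690 and 0.698 in limma. Mfap4 was at -0.89 ± 0.72. The differences had opposite signs in the systems for Mfap4 and, on its brightest probe set, for Fbn2 (-2.79 in vivo and 0.28 in vitro). For Eln they were -2.80 in vivo and -0.09 in vitro. The shared effects of Eln, Fbn2 and Mfap4 thus come from the in vivo pair and are not read as common to both systems. The fit has 1 residual degree of freedom per gene, so the number of arrays limits its precision. That residual is the disagreement between the 2 pairs, not a spread between replicate arrays. A gene that differs in 1 system only therefore gets a large SE.

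Genes that crosslink, assemble, bind or degrade elastic fibres were examined next, as a list of 35, of which 32 had a probe set and 28 were analysed. In vivo 2 of the 28 were beyond 2-fold, 1 in each direction, against 6.62% of all genes in either direction. Their median difference was -0.15, with 18 lower and 10 higher, where 53.6% of all genes were lower. In vitro 0 of the 28 were beyond 2-fold, against 1.93% of all genes. The in vitro median was 0.02, with 13 lower, 14 higher and Ctsk equal, where 57.5% of all genes were lower. None passed 0.05 after adjustment in the limma fit, and 1, Adamts10, had an unadjusted p under 0.05, against 6.95% of all genes.

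Among structural partners, Efemp1, which encodes fibulin-3, was the one with an in vivo difference of the size seen for Eln. It read 6.87 on the in vivo deleted array against 9.59 on its control, or 6.58-fold lower, and 11.12 against 11.16 in vitro. Emilin1, a glycoprotein at the interface of elastin and microfibrils, read 8.34 against 9.17 in vivo and 8.10 against 8.23 in vitro. Its second probe set differed by -0.44 in vivo and by 0.53 in vitro. Vcan, a large proteoglycan that binds fibulins and fibrillin, read 10.68 against 11.48 in vivo and 10.78 against 10.38 in vitro, and its in vivo probe sets ranged from -0.80 to 0.04. Efemp1 thus had its lowest signal of the 4 arrays on the in vivo deleted one, as Eln and Fbn2 did.

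Of the lysyl oxidases, which crosslink tropoelastin and collagen, Lox and Loxl1 differed by less than 2-fold in vivo. Lox read 12.43 on the in vivo deleted array against 12.56 on its control. Loxl1 read 11.70 against 11.56, and its second probe set differed by 0.42. In vitro Lox read 12.77 against 12.09, a difference of 0.68, but its probe sets ranged up to 2.25. Loxl1 differed by 0.37 in vitro, with -0.25 on its second probe set. Neither Lox nor Loxl1 thus had an in vivo difference of the size of that of Eln.

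Of proteins that hold latent TGF-beta on microfibrils, Ltbp3 read 8.83 against 9.46 in vivo and 9.07 against 9.02 in vitro. Its second analysed probe set differed by -0.61 in vivo and by -0.57 in vitro. Ltbp4, which also takes part in elastic fibre assembly, read 7.41 against 7.21 in vivo and 8.11 against 7.64 in vitro. Adamts10, a secreted metalloproteinase that binds fibrillin, read 7.60 against 8.48 in vivo and 7.24 against 7.70 in vitro, lower in both. Its second probe set differed by -0.15 and 0.15.

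Of elastin-degrading enzymes, Mmp9 (gelatinase B) was the gene of the list with the highest in vivo difference. It read 7.04 on the in vivo deleted array against 5.40 on its control, or 3.11-fold higher, and a second probe set differed by 2.48. In vitro it read 5.24 against 5.65, the first of these under the level cutoff. Ctss, the elastolytic cathepsin S, read 5.10 against 5.06 in vivo and 6.52 against 6.98 in vitro. The integrin subunits Itgb3 and Itgb5 are partners of the alpha V chain in receptors for matrix proteins. They differed by -0.83 and -0.58 in vitro and by -0.09 and -0.33 in vivo. The in vitro probe sets of Itgb3 ran from -0.83 to 0.29, so no direction is read for it there. Those of Itgb5 ran from -0.58 to -0.21.

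**Figure D4:**
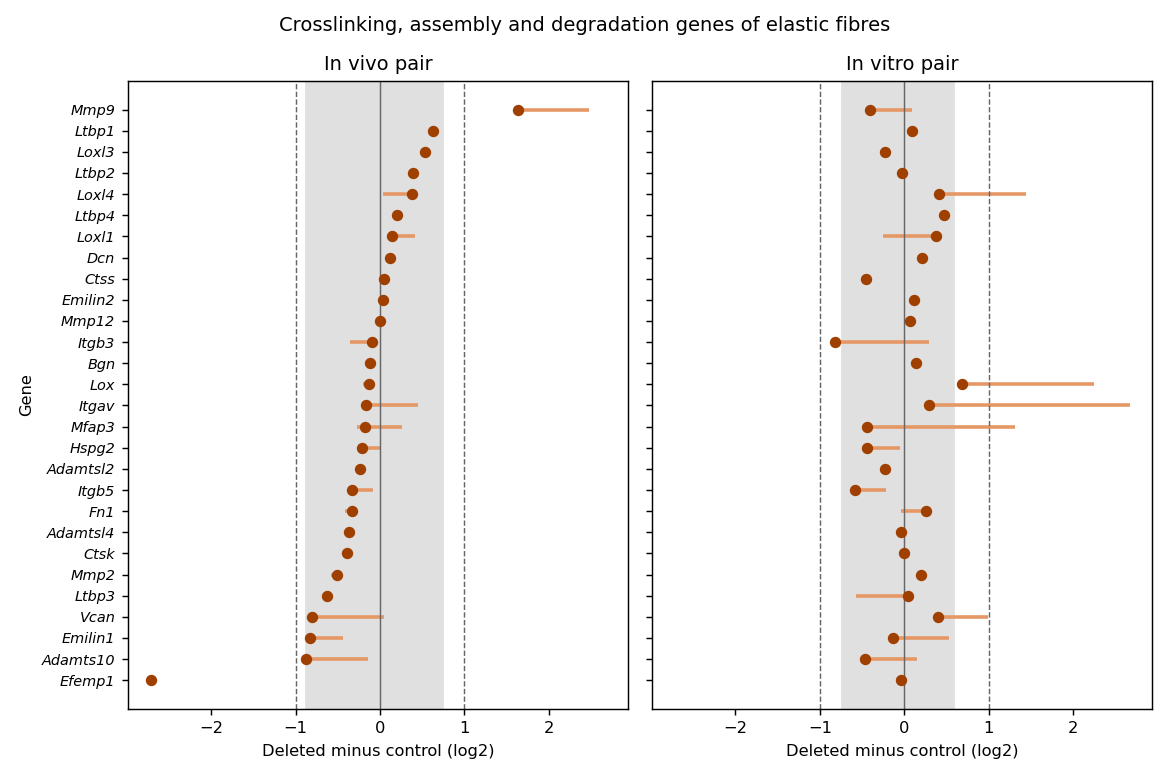
Deleted minus control (log2) for 28 other elastic fibre pathway genes, in vivo on the left and in vitro on the right, ordered by the in vivo value. Points are the brightest probe set, orange lines span the probe sets above the level cutoff, the grey band is the 5th to 95th percentile of all genes and dashed lines mark 2-fold. Efemp1 is the gene below 2-fold in vivo and Mmp9 the one above it.

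Genes with a pattern like that of Eln over the 4 arrays were found by Euclidean distance of mean-centred log2 signals. The nearest were Agtr2 (distance 0.60), Egfl6 (0.69), Ogn (0.80), Abca9 (1.01) and Efemp1 (1.03). Their in vivo differences ran from -3.31 for Egfl6 to -2.34 for Abca9, beside -2.80 for Eln. The nearest to Fbn2 were Lgr5 (0.28), Fat4 (0.43), Ccn3 (0.49), Arhgap28 (0.52) and Acss2 (0.54). Lgr5 read 8.48 on the in vivo deleted array against 11.51 on its control, and 11.36 on both in vitro arrays. Within the family the closest patterns were those of Fbln2 and Mfap5 (0.51), and the most distant those of Eln and Fbln1 (5.47). Each distance rests on 4 arrays.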

How the data were processed

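The deposited table gives log2 expression values for 45101 probe sets on 4 arrays, made by the authors; the sources used here do not name their software or normalization. The log2 scale was read from their range (2.87 to 13.79). Labelled biotin cRNA was made from oligo(dT)-primed poly(A) RNA, per the labels' protocols, so signal depends on the distance from the 3' end. Column quartiles differed, so the 4 arrays were quantile normalized (R 4.3.3, limma 3.58.1). Gene names came from the platform annotation (34945 with 1 gene, 932 with several, 9211 not listed), and symbols were updated through RefSeq GRCm38.p6 (34741 matched). Differences are deleted minus control within a pair, with a 2-fold threshold. The shared effect was fitted with limma (lmFit, eBayes) and adjusted by Benjamini-Hochberg at 0.05. The procedure was tested on simulated data in which 200 genes changed by the same amount in both systems. It therefore does not show how well the limma fit finds a gene that differs in 1 system only. Members and lists, and the rule for names (all members, 6 further pathway genes per pair with the largest difference plus Lox, Loxl1 and Ltbp4, and the 5 nearest patterns to Eln and Fbn2), were chosen with earlier results of these data known. Collagen genes and Lum, Vim, Krt5, Krt14, Myog, Trp63 and Myod1, as well as pairs of like patterns within the family, were named after their values were seen. Whether samples came from separate animals or cultures was not given.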

Additional observations from a re-analysis of the deposited data

Results flagged for a closer look

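Genes are given here where the deletion difference had opposite signs in the pairs and the pairs differed by at least 2-fold, with 1 array behind each group, and the gap between pairs was not tested for any of them. Fbn2 had an in vivo minus in vitro gap of -3.08, from differences of -2.79 in vivo and 0.28 in vitro. Mfap4 had a gap of -2.98, from -2.39 and 0.60. Fbln5 had a gap of -1.21, from -0.92 and 0.29. Of the other pathway genes, Vcan had a gap of -1.21, from -0.80 and 0.41, and Mmp9 a gap of 2.04, from 1.64 and -0.41. The in vitro signs of Fbn2 and Mmp9 differed between their probe sets. The second Fbln5 probe set, under the level cutoff, read -0.24 in vitro, and the in vivo probe sets of Vcan ran from -0.80 to 0.04.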

How the results depend on the processing

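The count of genes at least 2-fold lower in vivo was 4 under values as deposited, loess, centring, an added 20th percentile (15.4), a gene's median probe set value, removal of _x_at and _s_at probe sets, other level filters and a 3-fold threshold. The removal of probe sets and the level filters left the brightest probe set of all 8 genes in place, so they could not change this count. They are still included in the totals of recomputed values below. With the probe set nearest to 0, an alternative chosen after seeing the data, the count was 2 (Fbn2 and Mfap4) and the in vivo median of the 8 genes -0.57, since Eln and Mfap2 then read -0.48 and -0.65. A 1.5-fold threshold was passed by 6 of the 8 genes in vivo (19.2% of all genes) and by 2 in vitro (14.8%). The count of 4 genes with a gap of at least 2-fold between the pairs was 3 to 5 under 7 alternatives chosen after seeing the data. It was 3, without Eln, on the probe sets nearest to 0. With a gene's median probe set value it was 3, without Fbln5, which then read -0.50 in vivo and 0.02 in vitro. Of the other pathway genes, 1 was beyond 2-fold in vivo with a 60th percentile filter, which removed Mmp9. In vitro 1 was beyond 2-fold with a gene's median probe set value (Lox, at 2.25), and 1 with no level filter (Fbln7, at -1.20). The remaining 93 of 99 recomputed summaries did not move by more than the spread between probe sets, or by more than 1.5 times for counts. Of 112 recomputed differences of single members, 8 moved by more than the spread between probe sets. With a gene's median probe set value these were Eln at -1.64, Mfap2 at -1.15 and Fbln5 at -0.50 in vivo, and Fbln2 at -0.34 in vitro, and with the probe set nearest to 0 Eln, Fbn2 (-2.33), Fbln1 (-0.17) and Mfap2 in vivo. No 2-fold difference of a member changed sign. The limma fit gave 0 calls under each of 7 alternatives, with 131 to 1230 genes at an unadjusted p under 0.05, and the lowest adjusted p of a member at 0.623. The system term pairs each deleted array with its control in that fit, and without it 0 genes passed and 131 had an unadjusted p under 0.05. The 1 array per group limits all values, and of the brightest probe sets, Eln on the in vivo deleted array (5.87) lies nearest to the level cutoff (5.28).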
